A study of Thermothelomyces thermophilus with 14 samples.

Results

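The comparison described here sets mycelium given cellobiose (G2) against mycelium given glucose with xylose (GX) in the thermophilic filamentous fungus Myceliophthora thermophila, wild-type strain ATCC 42464. It rests on 4 of the 14 RNA sequencing libraries of the series, 2 G2 libraries and 2 GX libraries, taken by the group named in the sample title. The comparison itself was chosen with earlier results of these data known. In both groups pregrown mycelium had been moved into 5 mL of Vogel's salts in 24-well plates and was harvested 4 h later. The G2 medium held 2% cellobiose, and the GX medium held 1% glucose and 1% xylose, so that total sugar was 2% in each. The question addressed is what the disaccharide does to gene expression beyond feeding the cells with single sugars. Levels in 3 other plate media are given beside some genes, untested: no carbon source, 2% xylobiose (X2), and 2% cellobiose with 2% xylobiose (G2X2). The G2 and GX media differ in the presence of cellobiose, of free glucose and of xylose at once, and these differences cannot be told apart in this contrast.

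Cellobiose is a pair of linked glucose units and the main soluble product of cellulose breakdown. Cellulolytic fungi take it up through cellodextrin transporters and split it inside the cell with a beta-glucosidase, and in related fungi it acts as the signal that turns on genes for secreted cellulases. Free glucose, in contrast, is known to hold such genes down through carbon catabolite repression. Gene names and enzyme classes below are published assignments for this species as remembered, since the count table and the reference gene table carry locus identifiers only; genes without a published assignment are given by identifier alone.

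Each of the 4 libraries held between 17992946 and 22338333 counts assigned to genes, and their 10 most abundant genes took 6.18% to 6.67% of counts. Across genes, log2 levels correlated at r = 0.990 between the G2 libraries, at 0.988 between the GX libraries and at 0.946 to 0.961 between groups, and genes are not independent replicates. Replicates of each group differed by more than sampling noise. Nothing in the labels tells whether replicates were separate cultures, so the spread between them may be technical. A p-value reflects the spread within the 7 groups of all 14 libraries in the fit, not within these 4 alone. The fit includes the libraries with 2% xylan and with 1% xylan and 1% Avicel, grown in 100 mL rather than in plates. Fits with plate libraries only leave these out. Across genes, the replicate SD of log2 levels was 0.26 in G2 and 0.28 in GX. It was 0.42 in G2X2, 0.47 without carbon, 0.49 in X2, 0.40 with xylan and 0.24 with xylan and Avicel. In bulk RNA, a gene active in fewer hyphae and a gene with less RNA per hypha cannot be told apart. Levels are CPM, the count of a gene scaled to a common library size. The SE given after ± is the absolute log2 fold change divided by the square root of the F statistic of edgeR's quasi-likelihood test. Changes are log2 fold changes of G2 over GX from the same test, with Benjamini-Hochberg adjusted p over all genes tested. A gene was called when that adjusted p was under 0.05.

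Cellobiose and the monosaccharide mixture gave different expression at 899 of 8567 genes tested (10.5%), of which 396 (4.62%) were higher and 503 (5.87%) were lower with cellobiose. Most called changes were moderate, with a median of 1.18 among the higher genes and -1.28 among the lower genes on the log2 scale. At least 4-fold changes were seen for 78 of the higher and 113 of the lower genes, and at least 16-fold changes for 15 and 20. With 1 library left out, 504 genes were called without G2 replicate 1 and 219 without G2 replicate 2. Without GX replicate 1 the number was 374 and without GX replicate 2 it was 315.

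**Figure D1:**
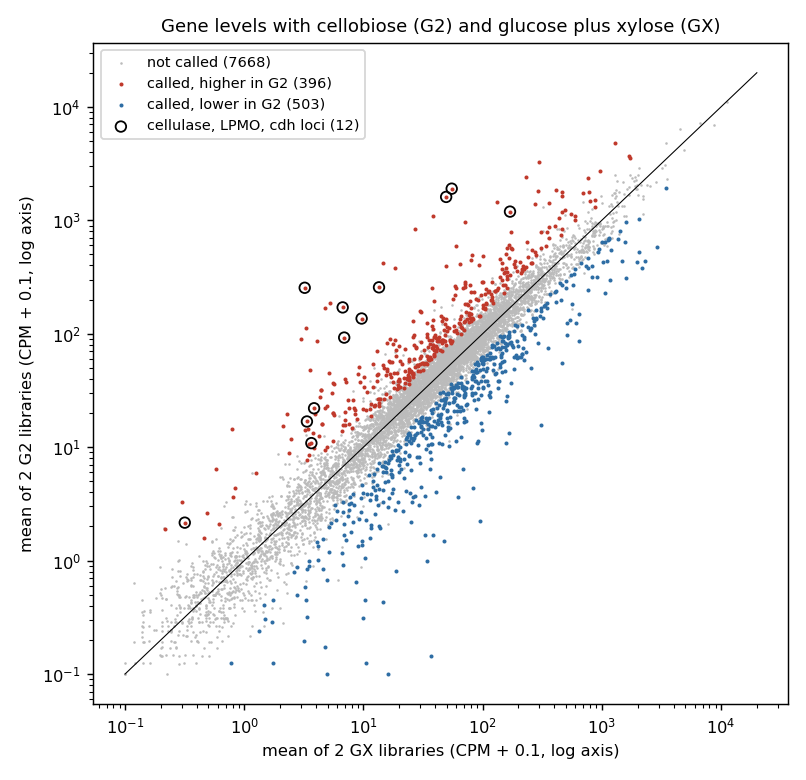
Mean level of each gene tested in the 2 G2 libraries (vertical) and in the 2 GX libraries (horizontal), in CPM plus 0.1 on log axes. Red points mark the 396 genes called higher and blue points the 503 called lower with cellobiose, grey points the 7668 not called, and circles the 12 cellulase, LPMO and cellobiose dehydrogenase loci, all of which lie above the diagonal.

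Genes for the breakdown of cellulose were far higher with cellobiose than with glucose and xylose. All 12 listed loci of this kind were called higher, beside 4.62% of all genes tested. They were 5 for cellulases, 6 for lytic polysaccharide monooxygenases (LPMO) and 1 for cellobiose dehydrogenase. Their median log2 fold change was 3.80, beside 0.03 over all genes tested. The list was drawn up with earlier results of these samples known, so its direction is no independent evidence. Among the same 12 loci the G2 and GX libraries did not overlap at any, as was the case for 69.0% of all genes tested. Every one of the 12 stood higher in G2 replicate 1 than in G2 replicate 2, by 1.12 to 2.65 times.

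The cellobiohydrolases attack cellulose chains from their ends and release cellobiose. The cellobiohydrolase gene cbh-1 (Mycth_109566) stood at 2199 and 1017 CPM in the G2 libraries, against 39.9 and 58.8 CPM in the GX libraries. For cbh-2 (Mycth_66729) the levels were 2336 and 1467 CPM with cellobiose, against 56.9 and 53.1 CPM with glucose and xylose. Even the lower G2 library was thus many times above either GX library for both genes. The rise was 5.03 ± 0.66 for cbh-1 (adjusted p = 0.00068; 4.37 without G2 replicate 1) and 5.11 ± 0.52 for cbh-2 (adjusted p = 0.000126). Without any carbon source cbh-1 had 427 and 166 CPM and cbh-2 had 128 and 66.8 CPM, so that the GX levels of both genes lay below every library without carbon. With xylobiose cbh-1 had 361 and 917 CPM and cbh-2 had 88.2 and 238 CPM, above GX and below G2.

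Endoglucanases cut within the cellulose chain, and all 3 listed loci rose. The gene eg-1 (Mycth_111372) had 235 and 106 CPM with cellobiose, against 5.22 and 7.97 CPM with glucose and xylose (4.69 ± 0.53, adjusted p = 0.000257; 4.00 without G2 replicate 1). The gene eg-2 (Mycth_86753) had 1536 and 851 CPM in G2, against 191 and 148 CPM in GX (2.81 ± 0.33, adjusted p = 0.000264). The third locus, eg-45 (Mycth_76901), had 118 and 67.3 CPM in G2, against 6.31 and 7.29 CPM in GX (3.76 ± 0.41, adjusted p = 0.000163). These genes differed from each other in the carbon-free libraries: eg-1 was at 1.19 and 1.01 CPM and eg-2 at 64.6 and 40.0 CPM, under their GX levels, whereas eg-45 was at 17.8 and 17.7 CPM, over its GX levels.

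The oxidative enzymes moved in the same direction. Cellobiose dehydrogenase oxidises cellobiose and can pass electrons to LPMOs, copper enzymes that break cellulose chains by oxidation. Its gene, cdh (Mycth_111388), had 358 and 155 CPM with cellobiose, against 14.5 and 12.3 CPM with glucose and xylose (4.26 ± 0.58, adjusted p = 0.000872; 3.53 without G2 replicate 1). The LPMO locus Mycth_112089 had 369 and 139 CPM in G2, against 3.05 and 3.19 CPM in GX. This was the greatest rise among all 8567 genes tested, at 6.35 ± 0.70 (adjusted p = 0.000217; 5.48 without G2 replicate 1). A second abundant LPMO locus, Mycth_46583, had 146 and 126 CPM in G2, against 9.10 and 10.02 CPM in GX (3.83 ± 0.66, adjusted p = 0.00375). Media without cellobiose were also above GX for Mycth_46583, with 58.6 and 288 CPM with xylobiose and 59.0 and 22.7 CPM without carbon. With xylobiose Mycth_112089 had 1.85 and 6.82 CPM and cdh had 13.0 and 50.7 CPM.

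The other 4 LPMO loci stayed at low levels in both media, and their calls were less stable. With xylobiose Mycth_80312 had 52.0 and 175 CPM, above either G2 library. In that medium Mycth_79765 had 5.06 and 4.05 CPM, Mycth_92668 had 1.14 and 2.50 CPM and Mycth_85556 had 2.83 and 4.73 CPM. Mycth_80312 had 29.9 and 13.99 CPM in G2, against 3.53 and 3.98 CPM in GX, a log2 fold change of 2.54 that was 1.90 without G2 replicate 1 (adjusted p = 0.0609). Its adjusted p was 0.0751 without GX replicate 1 and 0.068 without GX replicate 2. Mycth_79765 had 22.8 and 10.7 CPM in G2, against 2.87 and 3.64 CPM in GX, a change of 2.36 that was 1.71 without G2 replicate 1 (adjusted p = 0.0867). Its call was also lost without GX replicate 1 (0.0937) or GX replicate 2 (0.0657). Mycth_92668 reached only 2.18 and 1.94 CPM in G2, against 0.131 and 0.304 CPM in GX. Its change of 3.19 was 2.74 without GX replicate 1 (adjusted p = 0.0594) and 3.92 without GX replicate 2. Mycth_85556 had 12.2 and 9.30 CPM in G2, against 4.31 and 2.81 CPM in GX (1.60 ± 0.46, adjusted p = 0.0461). The call at Mycth_85556 was lost on leaving out any of the 4 libraries (adjusted p 0.111 to 0.286), with upper-quartile scaling (0.0605), with plate libraries only (0.0632) and with the replicate number as a block (0.0572).

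Of the listed genes for the uptake and cleavage of cellobiose, gh1-1 and cdt-2 rose and cdt-1 was not called. The intracellular beta-glucosidase gene gh1-1 (Mycth_115968), whose enzyme splits cellobiose into glucose, had 479 and 347 CPM with cellobiose, against 62.4 and 66.9 CPM with glucose and xylose. This was a rise of 2.68 ± 0.32 (adjusted p = 0.000264). Its GX level lay within the range of the carbon-free libraries, which had 48.8 and 74.4 CPM. The cellodextrin transporter gene cdt-2 (Mycth_114107) had 293 and 212 CPM in G2, against 37.1 and 37.6 CPM in GX (2.76 ± 0.42, adjusted p = 0.00138). Unlike gh1-1, cdt-2 stood between its G2 and GX levels in the carbon-free libraries, at 127 and 78.7 CPM. It was far above its G2 level with xylobiose, at 1467 and 3208 CPM, and in the disaccharide mixture, at 1479 and 1443 CPM. The gene gh1-1 had 46.0 and 80.2 CPM with xylobiose and 411 and 425 CPM in the mixture.

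The other transporters gave weaker or no calls. The glucose transporter gene glt-1 (Mycth_108924) had 184 and 326 CPM with cellobiose, against 65.7 and 71.7 CPM with glucose and xylose. The rise of 1.89 ± 0.55 was just past the threshold (adjusted p = 0.0482). The call was lost on leaving out any 1 of the 4 libraries (log2 fold changes 1.42 to 2.25, adjusted p 0.0599 to 0.333), with upper-quartile scaling (0.0526), with no filter on low counts (0.0521), with plate libraries only (0.0552) and with the replicate number as a block (0.0641). The cellodextrin transporter gene cdt-1 (Mycth_43941), the least sure of the assignments, had 3.30 and 2.17 CPM in G2, against 2.31 and 2.85 CPM in GX. It differed by 0.08 (95% interval -1.13 to 1.29), a value that changed sign without G2 replicate 1 (-0.25) or GX replicate 1 (-0.06). The arabinose transporter gene lat-1 (Mycth_95427) had 13.1 CPM in both G2 libraries, against 21.7 and 20.9 CPM in GX (adjusted p = 0.309).

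**Figure D2:**
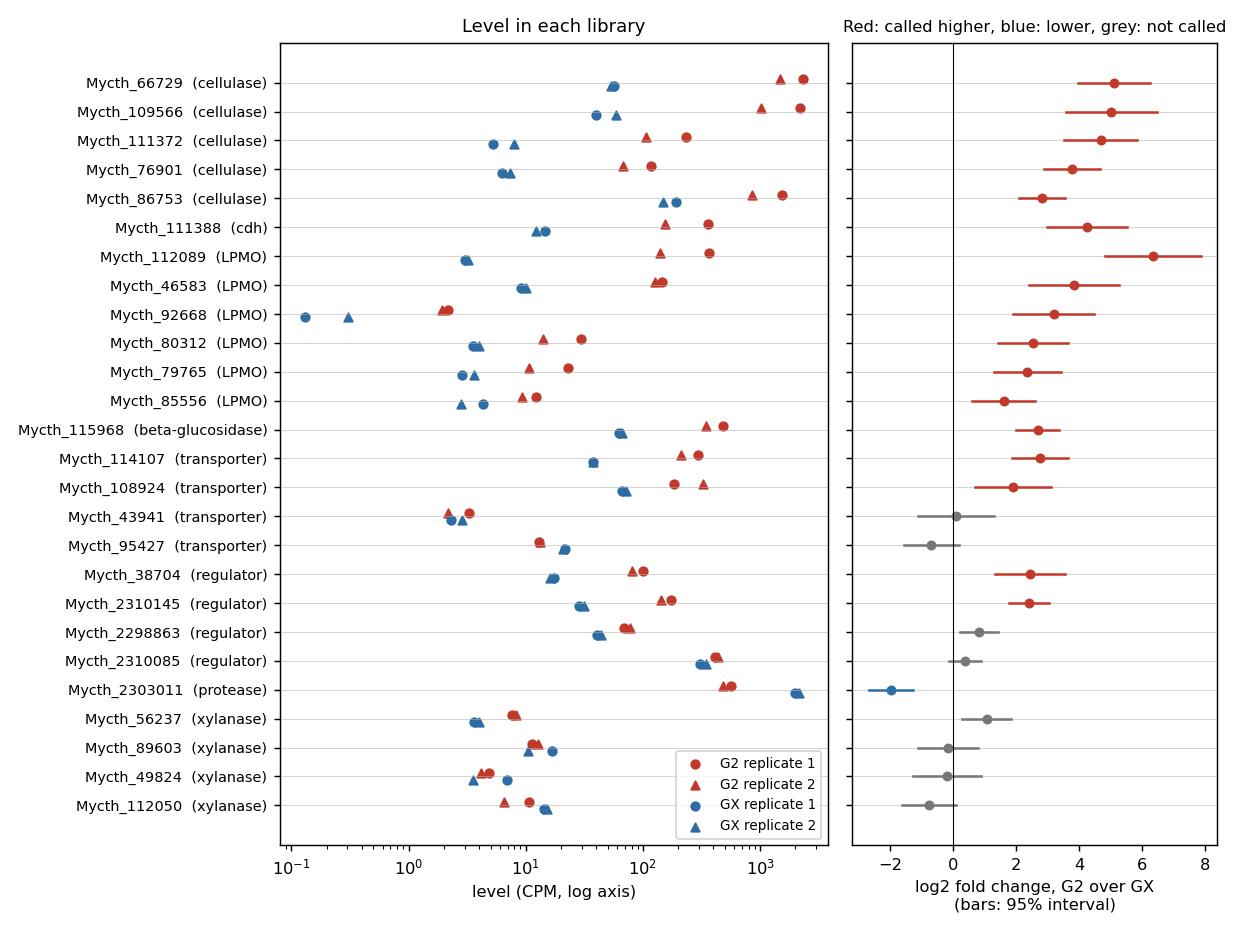
Left, level of each of the 26 listed loci in the 2 G2 (red) and 2 GX (blue) libraries in CPM on a log axis, with circles for replicate 1 and triangles for replicate 2. Right, log2 fold change of G2 over GX with its 95% interval. The 17 loci called higher are red, the single locus called lower is blue, and the 8 not called, among them all 4 xylanase loci, are grey. Over all genes tested, 4.62% were called higher and 5.87% lower. The list was drawn up with earlier results of these data known.

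Among the regulators, 2 of 4 listed genes rose, beside 4.62% of all genes tested, and the count was 1 of 4 in 3 of the 4 fits with a library left out. The gene clr-2 (Mycth_38704) encodes a zinc cluster transcription factor that cellulase genes need in related fungi such as Neurospora crassa. It had 100.2 and 80.4 CPM with cellobiose, against 17.3 and 16.1 CPM with glucose and xylose (2.43 ± 0.51, adjusted p = 0.0107). Its log2 fold change stayed between 2.27 and 2.58 with single libraries left out, but the adjusted p was 0.0506 without G2 replicate 1, 0.0801 without GX replicate 1 and 0.0988 without GX replicate 2. The gene xyr-1 (Mycth_2310145), a regulator known for its control of xylanase genes, had 174 and 143 CPM in G2, against 28.7 and 31.2 CPM in GX (2.40 ± 0.29, adjusted p = 0.000311).

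The other 2 regulators were not called. The gene clr-1 (Mycth_2298863), which acts upstream of clr-2 in Neurospora crassa, had 69.1 and 78.2 CPM in G2, against 40.3 and 43.5 CPM in GX (0.81 ± 0.28, adjusted p = 0.089). DESeq2 gave it an adjusted p of 0.0499. The gene cre-1 (Mycth_2310085) encodes the carbon catabolite repressor, a zinc finger protein that holds down genes for other carbon sources when glucose is present. It had 408 and 434 CPM in G2, against 304 and 346 CPM in GX, a difference of 0.37 (95% interval -0.15 to 0.89).

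The 4 listed xylanase genes, whose enzymes cut the backbone of xylan, gave 0 calls in either direction with edgeR on all 14 libraries. Over all genes tested, 10.5% were called. An unadjusted p under 0.05 was found at 1 of the 4, beside 2092 of all 8567 genes tested. Both counts are near those shares, so they show nothing particular to xylanase genes. With only the 4 contrasted libraries in the edgeR fit, 2 of the 4 xylanase genes were called, beside 2239 of 8344 genes tested. They were Mycth_56237, higher (1.02, adjusted p = 0.0124), and Mycth_112050, lower (-0.81, adjusted p = 0.0463). The median log2 fold change of the 4 xylanase genes was -0.19, or 0.26 without GX replicate 1. All levels were low: Mycth_89603 had 11.3 and 12.8 CPM in G2, against 16.6 and 10.6 CPM in GX, while the same locus stood at 5725 and 12636 CPM with xylobiose. Mycth_89603 thus differed by -0.17 (95% interval -1.11 to 0.77), or by 0.19 without GX replicate 1. Mycth_49824 had 4.85 and 4.15 CPM in G2, against 6.88 and 3.57 CPM in GX (-0.21, interval -1.29 to 0.87; 0.34 without GX replicate 1). Mycth_112050 had 10.7 and 6.50 CPM in G2, against 14.4 and 15.0 CPM in GX (-0.78 ± 0.40, adjusted p = 0.262). Mycth_56237 had 7.66 and 8.21 CPM in G2, against 3.61 and 3.98 CPM in GX (1.06 ± 0.36, adjusted p = 0.0811), and DESeq2 called it (adjusted p = 0.0365).

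The alkaline protease gene alp-1 (Mycth_2303011), for a secreted protein-degrading enzyme, was the single listed locus that fell. It had 561 and 484 CPM with cellobiose, against 1975 and 2168 CPM with glucose and xylose (-1.99 ± 0.32, adjusted p = 0.0023). The carbon-free libraries were in between or lower, at 993 and 458 CPM. With xylobiose alp-1 was above either GX library, at 1983 and 2710 CPM. In the disaccharide mixture it was below either G2 library, at 459 and 295 CPM.

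Among genes without a published assignment, 3 of the 6 greatest rises were, like the cellulase genes, high in both media that held cellobiose. Mycth_62925 had 215 and 125 CPM with cellobiose, against 4.75 and 4.63 CPM with glucose and xylose (5.18 ± 0.38, adjusted p = 2.01e-05). Mycth_33936 had 251 and 120 CPM in G2, against 5.27 and 5.09 CPM in GX (5.16, or 4.53 without G2 replicate 1). Mycth_110651 had 149 and 76.4 CPM in G2, against 4.31 and 2.13 CPM in GX (5.14, or 5.73 without GX replicate 1). Each was also high where both disaccharides were given together (G2X2), with 141 and 190 CPM for Mycth_62925, 106 and 113 CPM for Mycth_33936 and 167 and 252 CPM for Mycth_110651. In the carbon-free libraries none of the 3 passed 4.22 CPM. The remaining 3 of the 6 greatest rises were Mycth_112089, cbh-2 and cbh-1.

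A different profile appeared among the next 6 rises, which were picked out after their values had been seen. Mycth_110871 had 1080 and 1100 CPM with cellobiose, against 47.6 and 29.3 CPM with glucose and xylose (4.83 ± 0.42, adjusted p = 4.48e-05). Mycth_2313014 had 830 and 857 CPM in G2, against 28.0 and 25.8 CPM in GX (4.97 ± 0.56, adjusted p = 0.000257). Mycth_2305433 had 425 and 423 CPM in G2, against 20.2 and 8.54 CPM in GX (4.89, or 5.63 without GX replicate 1). These 3 genes agreed closely between the G2 libraries, where the cellulase genes were higher in replicate 1. Their levels were above those of GX without carbon and with xylobiose as well, except for Mycth_2313014 in 1 library without carbon. Without carbon Mycth_110871 had 285 and 247 CPM, Mycth_2313014 had 47.5 and 10.7 CPM and Mycth_2305433 had 153 and 41.9 CPM. With xylobiose they had 276 and 107 CPM, 144 and 103 CPM, and 181 and 65.6 CPM, in the order just given. All 3 had lower levels in the mixture of both disaccharides, which also held 2% cellobiose, than in either G2 library: 21.8 and 33.8 CPM for Mycth_110871, 40.3 and 65.7 CPM for Mycth_2313014 and 32.7 and 49.0 CPM for Mycth_2305433. Mycth_2300099 was likewise at 1.19 and 1.39 CPM in the mixture. It had 33.9 and 137 CPM in G2, against 5.53 and 2.35 CPM in GX, and its log2 fold change of 4.44 became 3.11 on leaving out G2 replicate 2, 5.12 on leaving out G2 replicate 1 and 5.18 on leaving out GX replicate 1. With only the 4 contrasted libraries in the fit its call was lost (adjusted p = 0.0626).

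**Figure D3:**
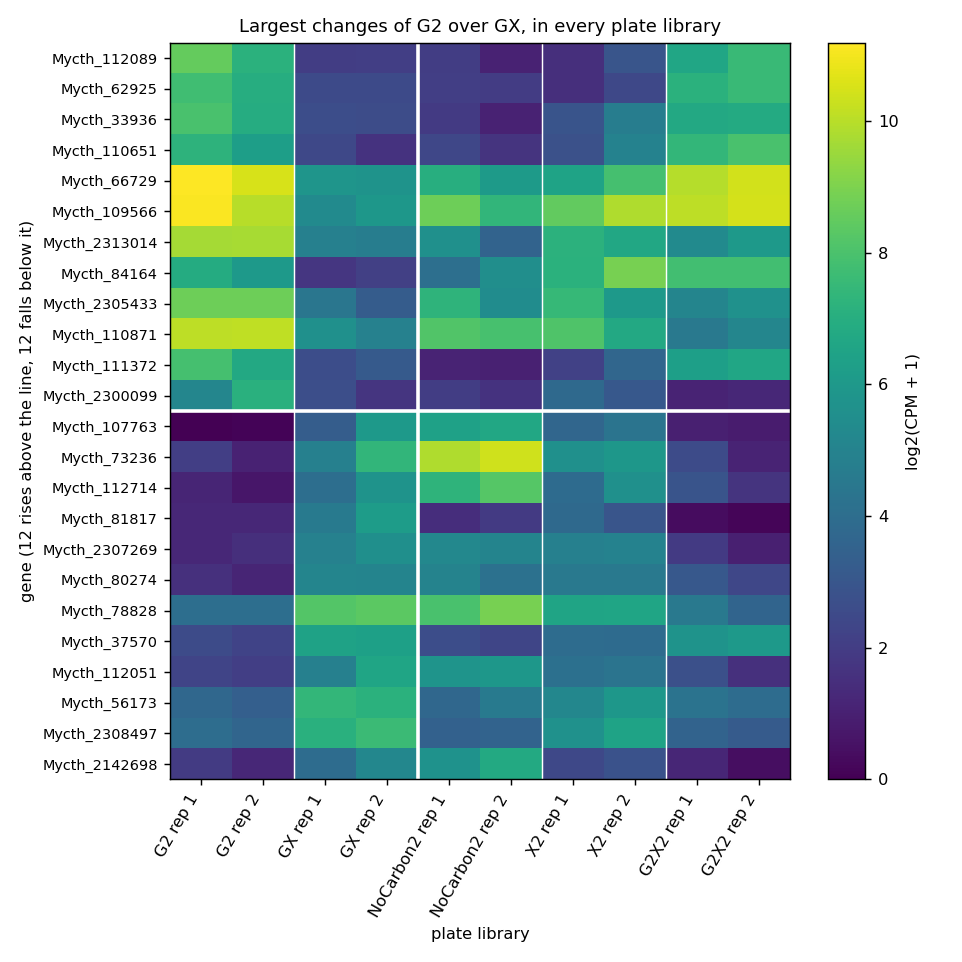
Level of the 12 greatest rises (above the horizontal line) and 12 greatest falls (below it) in each plate library, as log2(CPM + 1) by colour, for called genes whose higher group averaged 20 CPM or more. Rises such as Mycth_62925 and Mycth_110651 are brighter in the G2 and G2X2 columns than in GX, whereas Mycth_110871 and Mycth_2313014 are brighter in G2 than in G2X2.

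The greatest falls formed 2 kinds by their level without carbon. Most were far higher without carbon than with cellobiose. Their levels with glucose and xylose were mostly similar to or lower than those without carbon, and those with cellobiose were the lowest of these. Mycth_73236 had 3.20 and 1.08 CPM in G2, against 28.2 and 163 CPM in GX, with 930 and 1313 CPM in the carbon-free libraries. Its log2 fold change of -5.49 ranged from -6.46 without G2 replicate 1 to -3.72 without GX replicate 2. The call ended at -4.90 on leaving out G2 replicate 2 (adjusted p = 0.0726). The change was -6.26 without GX replicate 1, and not called with only the 4 contrasted libraries in the fit (adjusted p = 0.068). Mycth_112714 had 1.21 and 0.587 CPM in G2, against 15.6 and 52.0 CPM in GX. Its change of -5.24 was -5.84 without G2 replicate 1, -5.85 without GX replicate 1 and -4.12 without GX replicate 2, and leaving out G2 replicate 2 ended the call (-4.80, adjusted p = 0.0981). Mycth_107763 had 0 counts in G2 replicate 1 and 2 counts in G2 replicate 2, against 8.97 and 64.9 CPM in GX. Pooled over replicates, the GX level was 831 times the G2 level, with an exact 95% counting interval from 230 to 6870 that covers counting error only. Its fitted change was -9.46 and moved from -12.63 without G2 replicate 2 to -7.41 without GX replicate 2, with -8.59 without G2 replicate 1 and -10.27 without GX replicate 1. With only the 4 contrasted libraries in the fit its adjusted p was 0.061.

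In these 3 genes GX replicate 2 was several times higher than GX replicate 1. GX replicate 2 was at least 2-fold above GX replicate 1 at 32 of the 503 genes called lower (6.36%, beside 2.50% of all genes tested), and the reverse held at 3 (0.596%, beside 1.65%). Among the same 503 genes, G2 replicate 1 was at least 2-fold above G2 replicate 2 at 15 and the reverse held at 3. Among the 396 genes called higher, the numbers were 8 and 14 for G2, and GX replicate 2 was above replicate 1 at 10 and below it at 9. Over all 8567 genes tested, G2 replicate 1 was at least 2-fold above G2 replicate 2 at 167, and the reverse held at 136. GX replicate 2 was at least 2-fold above GX replicate 1 at 214 of the 8567, and the reverse held at 141. The part of these replicate differences in the calls was not tested. Other falls agreed well between replicates. Mycth_80274 had 1.89 and 1.26 CPM in G2, against 32.8 and 32.5 CPM in GX (-4.37 ± 0.38, adjusted p = 4.48e-05). Its carbon-free libraries, at 31.4 and 17.3 CPM, were below both GX libraries. Mycth_2307269 had 1.36 and 1.80 CPM in G2, against 29.0 and 46.8 CPM in GX (-4.58 ± 0.41, adjusted p = 4.48e-05), and 36.9 and 31.7 CPM without carbon. Mycth_78828, picked after its values had been seen, had 15.4 and 15.5 CPM in G2, against 293 and 326 CPM in GX, and 253 and 470 CPM without carbon (-4.32 ± 0.43, adjusted p = 7.83e-05).

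The second kind of fall was low without carbon as well, at levels close to those with cellobiose. Mycth_37570 had the smallest p-value of all genes tested. It stood at 4.90 and 3.70 CPM with cellobiose, against 85.2 and 82.2 CPM with glucose and xylose (-4.28 ± 0.25, adjusted p = 2.66e-06), and at 5.20 and 4.09 CPM without carbon. Where xylobiose was added to cellobiose it had 53.0 and 65.8 CPM, and with xylobiose alone 14.5 and 13.8 CPM. Mycth_56173 had 12.3 and 9.34 CPM in G2, against 170 and 142 CPM in GX (-3.85 ± 0.35, adjusted p = 4.87e-05), and 12.5 and 23.0 CPM without carbon. Mycth_2308497 had 15.0 and 11.6 CPM in G2, against 135.5 and 195 CPM in GX (-3.63 ± 0.31, adjusted p = 4.48e-05), and 10.2 and 10.7 CPM without carbon. These 3 genes belong to the falls ranked 7 to 12, which were picked after their values had been seen. Mycth_81817, from the 6 greatest, had 1.36 and 1.399 CPM in G2, against 22.9 and 72.5 CPM in GX. It had 1.72 and 2.69 CPM without carbon, and its change of -5.11 was -5.71 without GX replicate 1 and -4.05 without GX replicate 2. The last 2 of the 12 falls, Mycth_112051 and Mycth_2142698, were high without carbon and higher in GX replicate 2 than in replicate 1. Mycth_112051 changed by -4.12, or -4.74 and -3.00 without GX replicate 1 and GX replicate 2. Mycth_2142698 changed by -3.58, or -4.21 without G2 replicate 1 and -2.78 without GX replicate 2.

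Called genes were set against their neighbours in the gene order of assembly ASM22609v1. Of the 395 genes called higher that could be placed, 84 (21.3%) lay next to another gene called higher, and of the 498 called lower, 126 (25.3%) lay next to another called lower. Of all 8548 genes tested that could be placed, 8.42% lay next to a gene called higher and 9.73% next to a gene called lower. These shares are descriptions and were not tested. There were 4 runs of 3 genes called higher, and 13 runs of at least 3 genes called lower, the longest of 5 genes. Because the strand setting of the counting is not stated, reads shared by overlapping neighbours cannot be told apart.

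The longest run held Mycth_2130517, Mycth_2071285, Mycth_2071504, Mycth_2071514 and Mycth_2071953, and its last 3 genes were abundant with glucose and xylose. Mycth_2071514 had 441 and 718 CPM in G2, against 3381 and 2424 CPM in GX (-2.32 ± 0.40, adjusted p = 0.00331). Mycth_2071953 had 329 and 539 CPM in G2, against 2779 and 1825 CPM in GX (-2.41 ± 0.42, adjusted p = 0.00378). Mycth_2071504 had 240 and 384 CPM in G2, against 1820 and 1357 CPM in GX (-2.35 ± 0.37, adjusted p = 0.00202). In the carbon-free libraries the same 3 genes had between 119 and 208 CPM. The first 2 genes of the run fell less, and neither call held with every library left out in turn. Mycth_2130517 changed by -1.12 and was not called without G2 replicate 2 (-0.81), GX replicate 1 (-1.14) or GX replicate 2 (-1.10), nor with plate libraries only (-1.13). Mycth_2071285 changed by -1.20 and was not called without G2 replicate 1 (-1.14), G2 replicate 2 (-1.27) or GX replicate 1 (-0.92).

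The runs of higher genes included one around gh1-1 and one ending at Mycth_84164, a gene among the 12 greatest rises. Both direct neighbours of gh1-1 were called higher, Mycth_2303657 at 94.7 and 75.0 CPM in G2, against 27.4 and 33.5 CPM in GX (1.48 ± 0.33), and Mycth_5082 at 35.8 and 52.2 CPM in G2, against 13.1 and 19.8 CPM in GX (1.42 ± 0.37). These neighbour calls were weak: that of Mycth_2303657 was lost on leaving out any 1 of the 4 libraries (1.30 to 1.64), and that of Mycth_5082 without G2 replicate 2 (1.12), GX replicate 1 (1.15) or GX replicate 2 (1.75). In the other run, Mycth_84164 had 117 and 62.7 CPM in G2, against 2.44 and 3.34 CPM in GX (4.95 ± 0.69, adjusted p = 0.000999). Next to it, Mycth_88807 had 13.5 and 25.2 CPM in G2, against 2.18 and 2.16 CPM in GX (3.15 ± 0.32, adjusted p = 7.99e-05). With xylobiose Mycth_84164 had 139 and 469 CPM, above either G2 library, whereas Mycth_88807 had 4.57 and 5.74 CPM. The third gene, Mycth_2139925, rose by 1.57, a call lost on leaving out any 1 of the 4 libraries (1.32 to 1.88) or with plate libraries only (1.57, adjusted p = 0.0576).

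**Figure D4:**
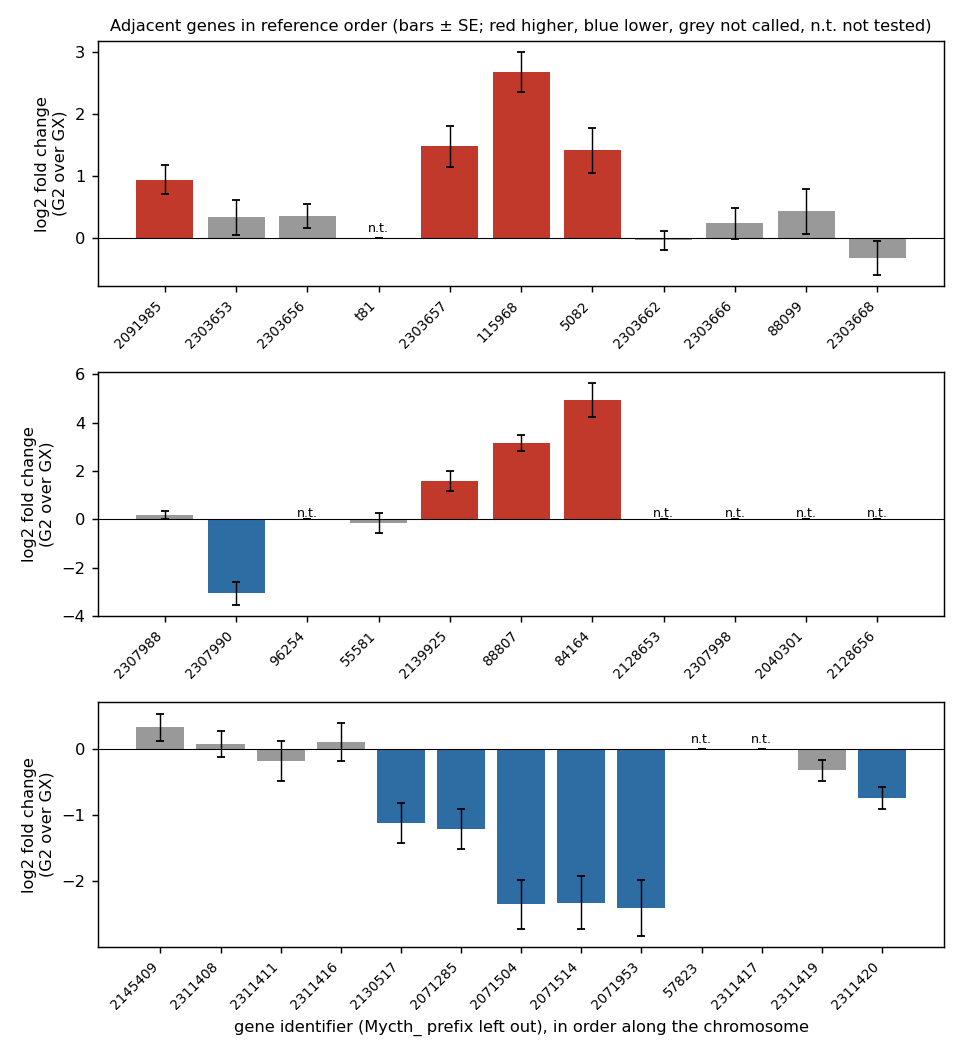
Log2 fold change of G2 over GX (bars, ± SE) for adjacent genes in reference order: the run around gh1-1 (Mycth_115968), the run ending at Mycth_84164 and the run of 5 genes from Mycth_2130517 to Mycth_2071953, each with up to 4 flanking genes on either side. Red bars were called higher, blue bars lower, grey bars not called, and n.t. marks genes not tested; the flanking genes next to each run were not called or not tested.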

How the data were processed

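RNA was sequenced from 14 mycelium libraries, 2 in each of 7 groups, and titles gave each library its group and number. The deposited values are raw read counts per gene. The submitters' processing notes list TopHat2 2.0.8b and HTSeq 0.13.5, without genome build, annotation or strand setting. Of 9110 identifiers, 9087 matched a RefSeq locus tag of assembly ASM22609v1, which served for neighbours only. Neither table holds product names or protein sequences, so planned searches by product, protein signature and promoter motif were not run.

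The test was run in edgeR 4.0.16 under R 4.3.3. The filterByExpr minimum count of 10 left 8567 genes, and libraries were scaled by TMM. A robust quasi-likelihood model took all 14 libraries, so that the 7 groups share 1 estimate of spread with 7 residual degrees of freedom, and gave a two-sided test of G2 minus GX. The fit was tested on simulated data. DESeq2 1.42.0, other scalings, filters, library subsets, a replicate block and leaving out each library were the alternatives.

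Genes were named as the 26 listed loci, plus the 6 greatest called rises and 6 greatest called falls with at least 20 CPM in the higher group and no overlap between libraries. Ranks 7 to 12, the genes of greatest CPM difference and the neighbour runs were added after their values were seen. The comparison and the list of loci were chosen with earlier results of these data known. The interval for pooled counts is an exact binomial one at 95%.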

Additional observations from a re-analysis of the deposited data

How the results depend on the processing

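The count of called genes depended most on the libraries in the fit and on the threshold. It was 2239 (1020 higher, 1219 lower) with only the 4 contrasted libraries in the fit, 377 at an adjusted p under 0.01 and 132 when tested against a 2-fold change with glmTreat. Leaving out single libraries gave 219 to 504 calls in all, 99 to 235 higher and 120 to 269 lower, and the lone remaining library of a group is then assumed to vary like the other groups. It was 1300 with DESeq2, which called all 899 genes of the edgeR test, and 648 with plate libraries only. Other scalings and filters gave 886 to 904. The fit of only the contrasted libraries also called clr-1 (Mycth_2298863) higher, the xylanase locus Mycth_56237 higher, and Mycth_112050 and lat-1 (Mycth_95427) lower. Every one of the 899 calls that could be compared kept its direction under each alternative run. The G2 and GX libraries did not overlap at any of the 899 genes, 396 higher and 503 lower, as was the case for 69.0% of all genes tested. Leaving out 1 library could therefore hardly reverse a direction, and the kept directions are no separate evidence. Replicate numbers are shared between groups, but the labels do not say that they mark a shared batch, so they were not taken as pairs. Across genes, the difference of replicate 1 and 2 correlated at -0.08 between G2 and GX. The fit with the replicate block gave 781 calls, 775 of them among the 899. Among the listed loci it removed the calls of Mycth_85556 and glt-1. The listed cellulase, LPMO and cellobiose dehydrogenase loci gave 8 to 12 calls of 12 and a median of 3.42 to 4.02 over the alternatives run for them, which leave out the stricter threshold and glmTreat. Signs changed only for values that were not called: over the fits with 1 library left out, the xylanase median ran from -0.54 to 0.26, Mycth_49824 from -0.61 to 0.34, Mycth_89603 from -0.46 to 0.19 and Mycth_43941 from -0.25 to 0.35 (-0.06 without GX replicate 1). The causes were not tested. With 2 libraries a group, changes at genes of a few CPM are the least certain.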

Other observations

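In terms of RNA amount, the called genes with the largest CPM differences were mostly without a published assignment and were picked after their values had been seen. Mycth_50335 had 3045 and 3511 CPM with cellobiose, against 336 and 262 CPM with glucose and xylose (log2 fold change 3.46 ± 0.41, adjusted p = 0.000264 from edgeR), and it was also high in the disaccharide mixture, at 1550 and 1682 CPM. Mycth_2140820 had 2449 and 2408 CPM in G2, against 252 and 212 CPM in GX (3.39 ± 0.32, adjusted p = 4.87e-05). Its level without carbon was 3200 and 2746 CPM and in the mixture 267 and 326 CPM, so it was low in the media with glucose and xylose and with both disaccharides, and high with cellobiose alone, with xylobiose alone (1967 and 3602 CPM) and without carbon. Mycth_2298380 had 3447 and 6178 CPM in G2, against 1478 and 1092 CPM in GX (1.90), a call lost without G2 replicate 2 (1.42) or GX replicate 2 (1.70). The calls of Mycth_112686 (1.13) and Mycth_2314727 (1.04) were lost on leaving out any 1 of 3 and any 1 of all 4 libraries. Both were also lost with plate libraries only (adjusted p = 0.0679 and 0.1004). That of Mycth_2314727 was further lost with upper-quartile scaling (0.054), with a minimum count of 50 (0.0524) and with the replicate number as a block (0.0625).

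On the lower side, Mycth_109638 had 410 and 350 CPM with cellobiose, against 1723 and 2637 CPM with glucose and xylose (-2.52 ± 0.27, adjusted p = 0.000131 from edgeR), and 249 and 187 CPM without carbon. Mycth_2071561 had 330 and 523 CPM in G2, against 2230 and 1712 CPM in GX (-2.21 ± 0.40, adjusted p = 0.00431). Its identifier is close in number to those of the 5-gene run, but it had no match in the reference gene table, so its place is not given. Mycth_2295438 had 1965 and 1883 CPM in G2, against 3889 and 3022 CPM in GX (-0.84), a call lost without either G2 library (-0.87 and -0.81) or GX replicate 1 (-0.65).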
